A study of Mus musculus with 4 samples.

Results

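The genes described here write, copy and remove methyl groups on cytosine in DNA. They are the DNA methyltransferase genes Dnmt1, Dnmt3a and Dnmt3b, the maintenance cofactor Uhrf1 and the dioxygenase genes Tet1, Tet2 and Tet3, which makes 7 of the 22690 genes in the deposited table, each chosen by its symbol and matched to 1 row. Their RNA was sequenced in retinal cells of postnatal day 2 C57BL/6 mice that had been sorted as 4N, which holds cells between genome copying and division. GFP-positive cells carried a conditional knockout (cKO) of the zinc finger factor gene Casz1, and they were set against GFP-negative cells labelled wild type, with 2 libraries in each group. The sorted GFP fraction thus differed together with the genotype. Neither the Cre driver and the Casz1 allele nor the number of animals in a library is stated in the sources used. The names A and B stand for numeric tags that each occur on 1 cKO column and 1 wild-type column.

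DNA methylation in mammals sits mainly on cytosines that are followed by guanine (CpG). When DNA is copied, UHRF1 binds the hemimethylated CpG and brings DNMT1, which methylates the new strand, while DNMT3A and DNMT3B can methylate sites on both strands anew. TET proteins oxidise 5-methylcytosine to 5-hydroxymethylcytosine and further products, which base excision repair can replace with unmethylated cytosine. In dividing progenitors Dnmt1 and Uhrf1 are known as genes of DNA replication, in neurons Dnmt3a and Tet3 are known as abundant family members, and in blood and myeloid cells Tet2 is known as a regulator of differentiation. RNA levels, not methylation, were measured here.

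Promoter sequences are shown for Uhrf1 and Dnmt1, the most abundant members, and for Tet2, the member with the largest difference between libraries. All 7 members were matched to 12 promoter windows of 300 bases in RefSeq (GRCm38.p6), each running from 250 bases before to 50 bases after a transcription start. The windows of Uhrf1 and Dnmt1 are those with an E2F-type motif, spelled TTTCCCGC, TTTGGCGC, TTTCGCGC or TTTGCCGC and searched on both strands, and the capitals mark the matches, none of which overlap. The capitals in the Tet2 window mark CpG.
Uhrf1, chr17:56304063-56304362, plus strand: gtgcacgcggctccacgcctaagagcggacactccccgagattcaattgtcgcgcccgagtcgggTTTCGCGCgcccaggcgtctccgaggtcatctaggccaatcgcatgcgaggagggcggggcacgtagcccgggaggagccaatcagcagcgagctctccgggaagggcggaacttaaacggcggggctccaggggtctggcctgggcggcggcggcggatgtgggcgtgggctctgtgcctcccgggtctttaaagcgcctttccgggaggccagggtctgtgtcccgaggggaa
Dnmt1, chr9:20952574-20952873, minus strand: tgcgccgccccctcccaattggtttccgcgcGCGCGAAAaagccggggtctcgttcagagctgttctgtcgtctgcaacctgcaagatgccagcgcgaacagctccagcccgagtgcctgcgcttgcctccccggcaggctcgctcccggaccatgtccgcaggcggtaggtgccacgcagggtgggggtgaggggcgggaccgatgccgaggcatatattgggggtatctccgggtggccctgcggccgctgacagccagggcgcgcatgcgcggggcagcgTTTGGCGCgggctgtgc
Tet2, chr3:133544341-133544640, minus strand: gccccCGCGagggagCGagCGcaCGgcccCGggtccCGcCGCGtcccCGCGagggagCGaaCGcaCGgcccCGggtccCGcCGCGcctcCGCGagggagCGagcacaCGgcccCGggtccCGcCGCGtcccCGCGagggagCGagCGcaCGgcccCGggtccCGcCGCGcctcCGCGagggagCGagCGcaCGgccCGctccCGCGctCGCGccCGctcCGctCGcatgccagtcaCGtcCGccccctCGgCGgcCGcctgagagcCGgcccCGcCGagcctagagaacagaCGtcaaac
An E2F-type match was present in 2 of the 12 member windows, 1 of Uhrf1 and 1 of Dnmt1, and in 2.26% of all 32851 windows. Such matches describe the letters and do not show a bound site. The Tet2 window held 57 CpG, more than 99.8% of all windows, whose median was 7 CpG. The Dnmt3a windows held 46, 47 and 18 CpG, the Dnmt3b window 30, the Tet3 window 22 and the Tet1 window 17. The Uhrf1 and Dnmt1 windows shown held 33 CpG each, and their other windows held 12 for Uhrf1 and 12 and 2 for Dnmt1.

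The cKO libraries A and B held 22326119 and 89473701 reads in genes, against 75832360 and 83753377 in wild-type libraries A and B. cKO library A stood apart: its correlation with the other libraries on log2(normalized count + 1) was 0.961 to 0.966, against 0.994 to 0.996 among the others, and 9179 of its genes had no read, against 5793 to 6169. Casz1 itself had normalized counts of 8687 and 10772 in the cKO libraries, against 13162 and 11995 in the wild-type libraries, a log2 fold change of -0.38 (limma, adjusted p = 0.771). Since any exon that is kept still gives reads, this level does not check the deletion. Markers of retinal progenitors and of G2/M phase were detected in every library, all 16 and 20 of them. The progenitor markers go with the labelled tissue. There was no library of cells outside the 4N sort, so detection of G2/M markers does not check the 4N content. Rod precursor markers were also present, with summed normalized counts of 119800 and 140997 in cKO libraries and of 209870 and 186356 in wild-type libraries. Values of A and B libraries are given in that order throughout.

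No member passed the test between cKO and wild type. limma on log2(normalized count + 1), with Benjamini-Hochberg adjustment at 0.05 over all 14480 genes with a mean of at least 10, called 0 of 7 members and 0 of all genes (0%), and 274 genes (1.89%) and 0 members had an unadjusted p under 0.05. On reads recovered from the values edgeR made 0 calls (208 genes had an unadjusted p under 0.05) and DESeq2 made 1, Nr2e3, which was lower and is named because it was the only call. The adjusted limma p of the members ran from 0.771 to 0.873. A miss of the threshold with 2 libraries a group does not show that the levels were alike, and the interval of each difference is given below. The median log2 fold change of the 7 members was -0.22, against -0.03 over all genes tested, and 5 were lower and 2 higher in cKO. The median was -0.13 without cKO library A, and it was -0.40 between the A libraries and 0.005 between the B libraries. The groups did not overlap for 4 of 7 members, against 39.5% of all genes tested, so groups without overlap are common in these libraries. By direction, Uhrf1 was higher in both cKO libraries than in both wild-type libraries (17.2% of all genes tested were so), and Tet1, Tet2 and Tet3 were lower in both (22.3% of all genes tested). In the authors' deposited table the p-values of the members ran from 0.286 for Tet2 to 0.945 for Dnmt3b.

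**Figure D1:**
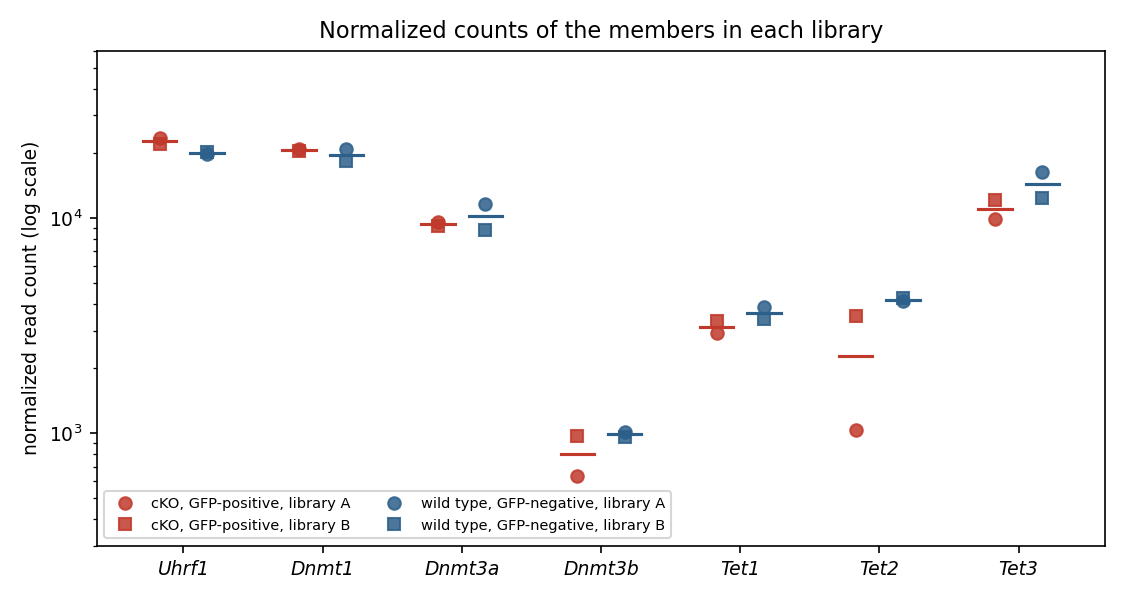
Normalized read count (log scale) of each member in the 2 cKO libraries (red, left) and the 2 wild-type libraries (blue, right); circles are A libraries, squares are B libraries and short lines are group means. Uhrf1 and Dnmt1 lie above the other members in every library, and Tet2 in cKO library A, at 1034, lies below the 3516 to 4234 of the other libraries.

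Uhrf1, the reader of hemimethylated DNA, had the highest level of the 7 genes per kilobase of exon, while its normalized counts and those of Dnmt1 overlapped in wild type. Uhrf1 (ENSMUSG00000001228, on the plus strand of chromosome 17, 56303321 to 56323486 of GRCm38; all members are protein-coding) gave normalized counts of 23643 and 22111 in cKO libraries and of 19775 and 20293 in wild-type libraries. Both cKO libraries were higher than both wild-type libraries. The means were 22877 ± 1084 in cKO and 20034 ± 366 in wild type (SD, n = 2 each), 114.2% of wild type. This gave a log2 fold change of 0.19 ± 0.17 (SE), and its 95% interval ran from -0.23 to 0.62 (limma, adjusted p = 0.771), which spans a small decrease as well as an increase. The log2 ratio was 0.26 between the A libraries and 0.12 between the B libraries, and the log2 fold change was 0.14 without cKO library A.

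Dnmt1, the maintenance methyltransferase that UHRF1 recruits, also varied little between libraries. Dnmt1 (ENSMUSG00000004099, on the minus strand of chromosome 9, 20907209 to 20959888 of GRCm38) had normalized counts of 21036 and 20450 in cKO libraries and of 21021 and 18342 in wild-type libraries. The groups overlapped, and the lowest value was that of wild-type library B. The log2 fold change was 0.08 with a 95% interval of -0.36 to 0.52 (limma, adjusted p = 0.873), and it was -0.02 when wild-type library B was left out, so no direction is given. Behind these values stood 7529 and 30933 reads in the cKO libraries, against 27688 and 26574 in wild-type libraries A and B.

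The de novo methyltransferase genes differed from each other in level, and neither separated the groups. Dnmt3a (ENSMUSG00000020661, on the plus strand of chromosome 12, 3806007 to 3914443 of GRCm38) had normalized counts of 9544 and 9162 in cKO libraries and of 11598 and 8791 in wild-type libraries. The wild-type libraries lay on both sides of the cKO libraries. Its log2 fold change was -0.11 with a 95% interval of -0.62 to 0.40 (limma, adjusted p = 0.847), and it was 0.09 without wild-type library A. Dnmt3b (ENSMUSG00000027478, on the plus strand of chromosome 2, 153649450 to 153687730 of GRCm38) had 631 and 968 in cKO libraries and 1011 and 964 in wild-type libraries. Its lowest value was that of cKO library A, where it rested on 226 reads. Its log2 fold change was -0.34 with a 95% interval of -1.03 to 0.36 (limma, adjusted p = 0.771), -0.03 when cKO library A was left out, and -0.64 without cKO library B, where it passed (limma, adjusted p = 0.036). In that fit, which treats the lone cKO library A as varying like the wild-type pair, 39.8% of all genes passed.

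**Figure D2:**
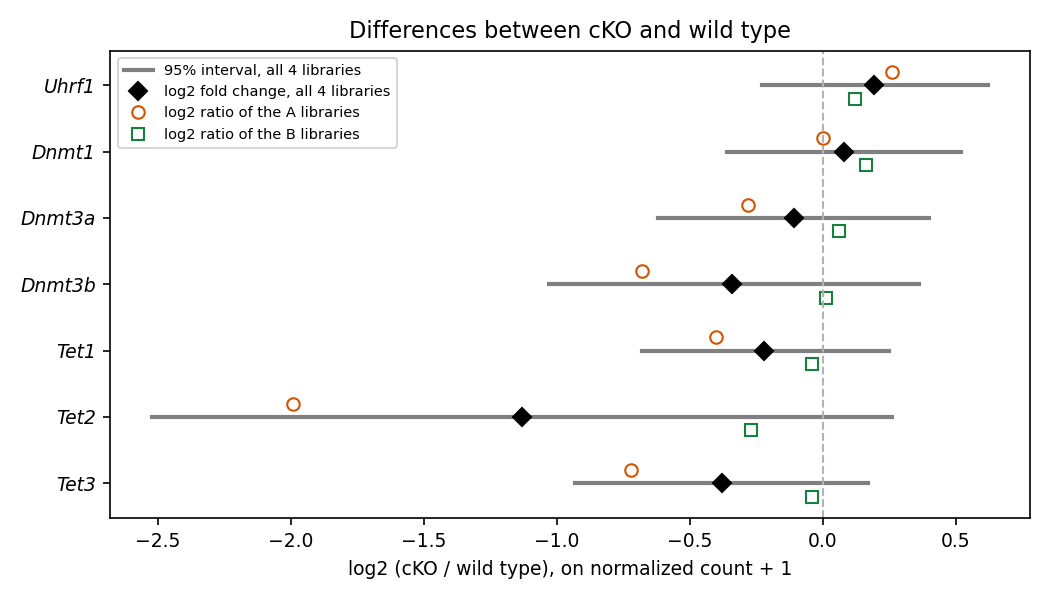
Difference between cKO and wild type of each member on the log2(normalized count + 1) scale; diamonds with grey lines are limma estimates with 95% intervals from 4 libraries, and open circles and squares are the ratios of the A and of the B libraries alone. Every interval spans 0, and the ratio of the B libraries is nearer to 0 than that of the A libraries for every member but Dnmt1.

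All 3 Tet genes had lower values in both cKO libraries than in both wild-type libraries (22.3% of all genes tested were so), and none passed the test. Tet2 had the largest difference. Tet2 (ENSMUSG00000040943, on the minus strand of chromosome 3, 133463679 to 133545139 of GRCm38) had normalized counts of 1034 and 3516 in cKO libraries A and B, against 4110 and 4234 in wild-type libraries A and B. cKO library A was far below the rest, at 26.2% of the mean of the other libraries, and it rested on 370 reads. The means were 2275 ± 1755 in cKO and 4172 ± 87.9 in wild type (SD, n = 2 each). The log2 fold change was -1.13 ± 0.56 (SE), and its 95% interval ran from -2.52 to 0.26 (limma, adjusted p = 0.771), and 10.3% of all genes tested had a fold change as low or lower. The log2 ratio was -1.99 between the A libraries and -0.27 between the B libraries. Without cKO library A the log2 fold change was -0.25 (limma, adjusted p = 1), with 0.373% of all genes called, and without cKO library B it was -2.01 and passed (limma, adjusted p = 3.93e-10), with 39.8% of all genes called.

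Microglial markers, which represent myeloid cells where Tet2 is also known to act, were low in the same libraries. All 12 microglial markers were lower in both cKO libraries than in both wild-type libraries (22.3% of all genes tested were so). Their summed normalized counts were 2473 and 11901 in cKO libraries A and B, against 25810 and 25076 in wild-type libraries A and B. Aif1 was at 0 in cKO library A. Whether these cells contributed to the Tet2 values was not tested. In bulk RNA, fewer cells of a type and less RNA per cell cannot be told apart. Between the B libraries the log2 ratio was -0.27 for Tet2, and its median was -1.09 for the list.

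Tet3, the most abundant Tet gene, had intermediate differences. Tet3 (ENSMUSG00000034832, on the minus strand of chromosome 6, 83362373 to 83459084 of GRCm38) had normalized counts of 9924 and 12105 in cKO libraries and of 16403 and 12453 in wild-type libraries. The B libraries of the groups were close, and the A libraries were the lowest and the highest of all. The means were 11015 ± 1542 in cKO and 14428 ± 2793 in wild type (SD, n = 2 each), 76.3% of wild type. Its log2 fold change was -0.38 with a 95% interval of -0.93 to 0.17 (limma, adjusted p = 0.771), with log2 ratios of -0.72 between the A libraries and -0.04 between the B libraries. It was -0.24 without cKO library A, and it was -0.18 and -0.58 when wild-type library A or B was left out. It was -0.53 without cKO library B, where it passed (limma, adjusted p = 0.0347). Rod precursor markers were lower in the same libraries, 19 of 20 without overlap (22.3% of all genes tested were so), with medians of -0.83 between the A and -0.61 between the B libraries, and their part in the Tet3 values was not tested.

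Tet1, known from mouse embryonic stem cells and the germ line, differed least among the Tet genes. Tet1 (ENSMUSG00000047146, on the minus strand of chromosome 10, 62804570 to 62908996 of GRCm38) had normalized counts of 2934 and 3320 in cKO libraries and of 3864 and 3408 in wild-type libraries. The cKO libraries were lower without overlap, but the B libraries of the groups differed by little, with a log2 ratio of -0.04. The log2 fold change was -0.22 with a 95% interval of -0.68 to 0.25 (limma, adjusted p = 0.771). It was -0.13 when either A library was left out.

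Per kilobase of exon Uhrf1 and Dnmt1 stood well above the other members, several of which lay close together. In cKO the order was Uhrf1 at 5372 ± 254 normalized counts per kilobase, Dnmt1 at 2812 ± 56.2, Tet3 at 660 ± 92.4, Dnmt3a at 562 ± 16.2, Tet1 at 202 ± 17.7, Dnmt3b at 157 ± 46.6 and Tet2 at 135 ± 104 (SD, n = 2 each). In wild type Uhrf1 had 4704 ± 85.9 per kilobase, Dnmt1 2668 ± 257, Tet3 864 ± 167, Dnmt3a 613 ± 119, Tet2 247 ± 5.2, Tet1 235 ± 20.9 and Dnmt3b 193 ± 6.4 (SD, n = 2 each). Neighbours in this order whose means differed by less than the sum of their SDs were Tet3 and Dnmt3a in both groups, Tet1, Dnmt3b and Tet2 in cKO, and Tet2 and Tet1 in wild type. Over all 4 libraries Uhrf1 exceeded 96.8% and Dnmt1 92.7% of the genes tested per kilobase, Tet3 69.6%, Dnmt3a 62.8%, Tet1 38.4%, Tet2 35.8% and Dnmt3b 34.3%. Lengths were merged exons of all GENCODE M21 transcripts. The length of the longest coding transcript was an alternative chosen after seeing the data. With it Tet2 at 248 per kilobase moved ahead of Tet1 at 218 and Dnmt3b at 185 in cKO. The wild-type order stayed as given, but Tet2 at 455 per kilobase was then well above Tet1 at 253. How close Tet2 and Tet1 lie in wild type thus depends on the length used.

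Dnmt1 and Tet3 made up most of the transcripts of their families in every library, per kilobase of merged exon. Shares with the length of the longest coding transcript were not computed. Among Dnmt transcripts per kilobase, Dnmt1 made up 80.4% and 78.9% in cKO libraries and 76.1% and 77.6% in wild-type libraries, and Dnmt3b 3.5% and 5.4% in cKO libraries and 5.3% and 5.9% in wild-type libraries. Among Tet transcripts, Tet3 made up 70.3% and 63.1% in cKO libraries and 66.6% and 61.3% in wild-type libraries. Tet2 made up 7.2% and 18.1% of Tet transcripts in cKO libraries A and B, against 16.5% and 20.6% in wild-type libraries A and B, so cKO library A held the lowest share. The ratio of Uhrf1 to Dnmt1 per kilobase was 1.95 and 1.87 in cKO libraries and 1.63 and 1.92 in wild-type libraries, which overlap.

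**Figure D3:**
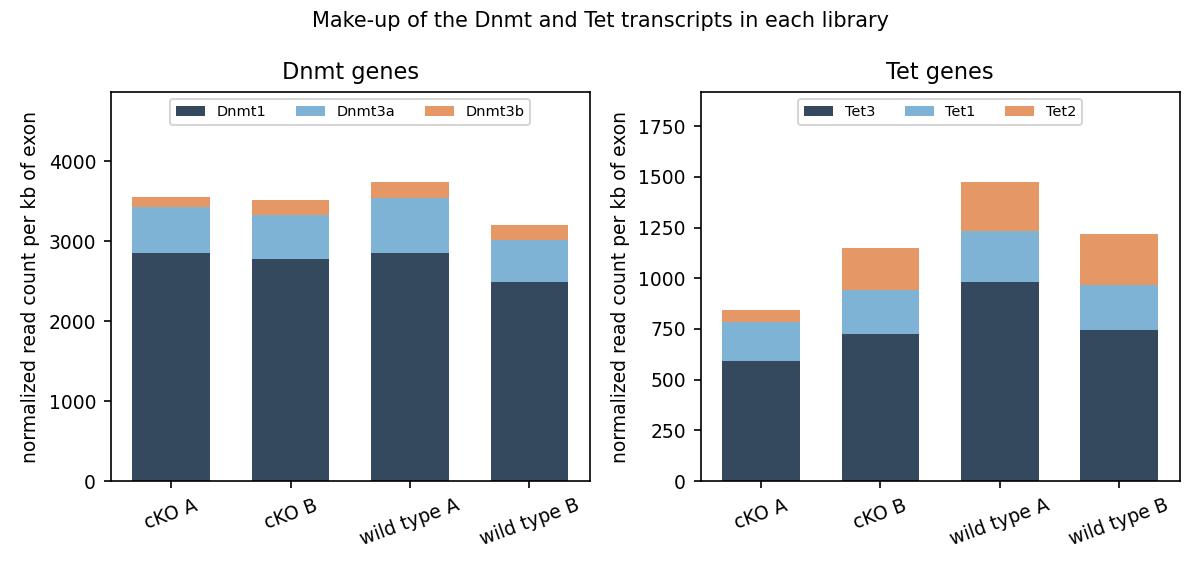
Normalized read counts per kilobase of merged exon, stacked by gene for the Dnmt family (left panel) and the Tet family (right panel), in the cKO libraries (left) and the wild-type libraries (right). Dnmt1 and Tet3 form most of each bar, and the Tet total runs from 846 in cKO library A to 1476 in wild-type library A.

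Transcript length moved with the ratios of the A libraries. Over the genes tested, the median log2 ratio between the A libraries was 0.27 for 1908 genes with under 2 kilobases of merged exon, 0.08 for 4330 genes from 2 to 4, -0.11 for 5496 genes from 4 to 8 and -0.30 for 2623 genes of at least 8 kilobases. Between the B libraries the same medians were 0.07, 0.00, -0.01 and -0.03. Wild-type libraries also differed by length: the median log2 ratio of wild-type library B to A was 0.16, 0.02, -0.02 and -0.05. The Tet genes and Dnmt3a, at 15.46 to 16.87 kilobases, belong to the longest group, and Uhrf1, at 4.26 kilobases, Dnmt3b, at 5.11, and Dnmt1, at 7.38, to the group from 4 to 8. Against genes of their own length group, Tet2 in the A libraries had a ratio above 7.1% of them, Tet3 above 27.8%, Tet1 above 44.3% and Dnmt3a above 51.7%, and in the B libraries Tet2 stood above 9.0%. Dnmt3b stood above 23.8% of its group in the A libraries and 54.1% in the B libraries, Dnmt1 above 57.0% and 87.6%, and Uhrf1 above 75.1% and 83.0%. The part of length in the Tet values was not tested.

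**Figure D4:**
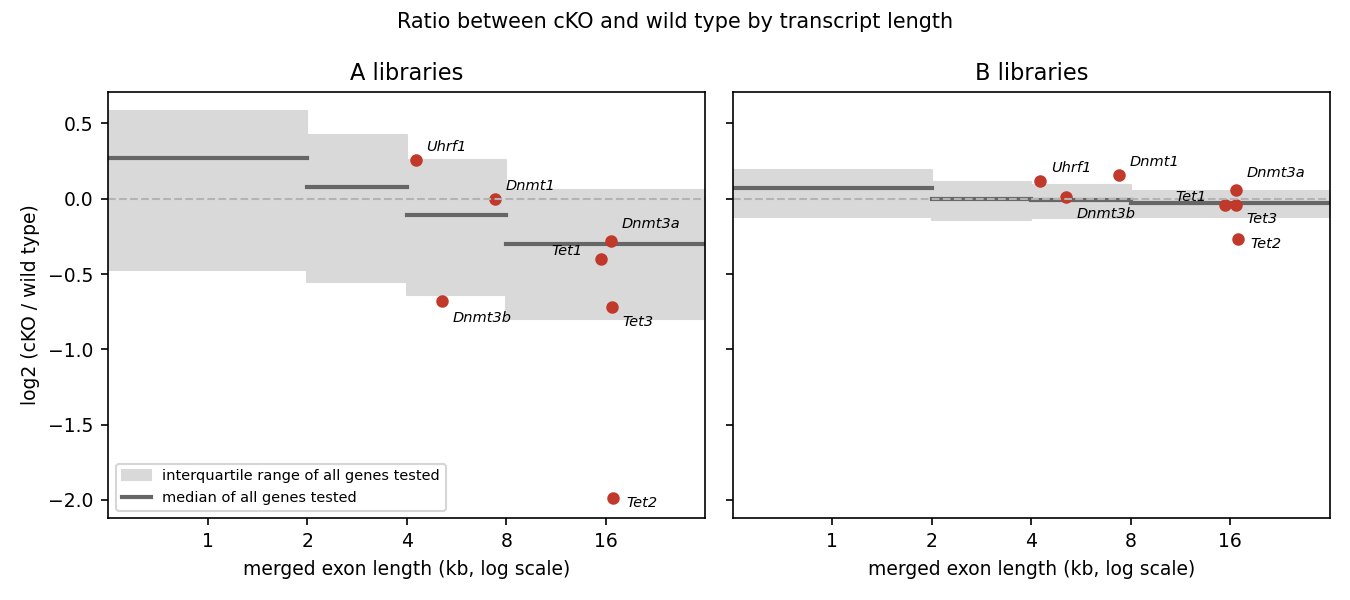
Log2 ratio of cKO to wild type against merged exon length (kilobases, log scale) for the A libraries (left panel) and the B libraries (right panel); red points are the members, dark lines the medians and grey bands the interquartile range of all genes tested in each of 4 length groups. In the A libraries the medians run from 0.27 to -0.30 and Tet2 lies at -1.99; in the B libraries the members lie between -0.27 and 0.16.

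Cofactors of methylation were measured as a list of 12, of which 10 passed the filter, with 0 called, 5 higher, 5 lower and a median log2 fold change of -0.03, which was 0.11 without cKO library A. Dnmt3l, a cofactor of de novo methylation in germ cells, and Dppa3 had no read in any library, which allows a normalized count of up to 8.38 in cKO library A and of 1.98 to 2.28 in the others. The highest members were Trim28, a corepressor that zinc finger proteins recruit, with 60228 and 42900 in cKO libraries and 44477 and 37619 in wild-type libraries, and Pcna, the sliding clamp of replication, with 19231 and 23148 in cKO libraries and 15692 and 20108 in wild-type libraries. Both overlapped between the groups. Their log2 fold changes were 0.31 and 0.25 (limma, adjusted p = 0.771 for each).

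Readers of methylated CpG had 0 of 8 called and a median log2 fold change of -0.07, with 3 higher and 5 lower. Mbd3, a NuRD subunit, had 14848 and 9533 in cKO libraries and 10542 and 9104 in wild-type libraries, which overlap. Genes of demethylation and base repair had 0 of 15 called, with 4 higher, 11 lower and a median of -0.24, which was -0.03 without cKO library A. Ogt, a glycosyltransferase known to bind TET proteins, had 3758 and 22193 in cKO libraries A and B, against 26451 and 24751 in wild-type libraries A and B. As for Tet2, cKO library A was far below the others, with a log2 ratio of -2.81 between the A libraries and -0.16 between the B libraries. Cxxc5, a CpG-binding protein, had a log2 fold change of 0.22 (limma, adjusted p = 0.789).

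Genes that supply the methyl donor or the TET cosubstrate had 0 of 10 called, 6 higher, 4 lower and a median log2 fold change of 0.14, which was 0.02 without cKO library A. Shmt2, a mitochondrial enzyme of one-carbon metabolism, had a log2 fold change of 0.37 and Mat2a, which makes S-adenosylmethionine, -0.42 (limma, adjusted p = 0.771 for each). S-phase genes, a list that Uhrf1 and Dnmt1 are known to follow, had 0 of 18 called, 16 higher, 12 of them without overlap (17.2% of all genes tested were so), and a median of 0.25, with 0.34 between the A libraries and 0.13 between the B libraries. Within it Rrm1, a ribonucleotide reductase subunit, had 0.50 and Mcm6, a helicase subunit, 0.27. Of 16 progenitor genes 14 were higher, at a median of 0.27, which was 0.11 without cKO library A.

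Genes that methylation is known to silence or mark were listed as a readout at the RNA level. Of 15 germline genes that promoter methylation is known to silence in mouse somatic cells, 4 passed the filter and 0 were called, and their summed normalized counts were 173 and 651 in cKO libraries and 563 and 625 in wild-type libraries. Of the 4 tested, 1 was higher and 3 lower. Their median log2 fold change was -1.27, with -3.14 between the A libraries and -0.04 between the B libraries. In cKO library A 13 of the 15 were at 0, against 5 to 6 in the others, and 1 read there is worth 2.79 normalized counts. Brdt, a bromodomain gene of the testis, had 126 and 553 in cKO libraries and 444 and 513 in wild-type libraries, which overlap, and Ddx4, a germ cell helicase, had 0 and 54.9 in cKO libraries and 78.2 and 75.2 in wild-type libraries. Imprinted genes had 0 of 17 tested called, 9 higher, 8 lower and a median of 0.16, which was 0.00 between the B libraries. Nnat, a paternally expressed gene of neural tissue, had a log2 fold change of 0.29 (limma, adjusted p = 0.771) and Grb10, a growth regulator, 0.24 (limma, adjusted p = 0.773).

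Cell cycle markers and markers of other cells had 0 called in each list with all 4 libraries. The median log2 fold change was 0.38 for 20 G2/M genes (18 higher, 2 lower), -0.80 for 20 rod precursor markers (1 higher, 19 lower), -2.52 for 12 microglial markers (0 higher, 12 lower), 0.13 for 10 ganglion cell markers (7 higher, 3 lower) and -0.11 for 10 amacrine and horizontal cell markers (4 higher, 6 lower). It was -0.16 for 8 endothelial and mural markers (4 higher, 4 lower) and -0.70 for 6 astrocyte markers (1 higher, 5 lower). Without cKO library A the medians, in the same order, were 0.02, -0.70, -1.20, 0.53, -0.07, -0.29 and -0.76, and between the B libraries alone the ganglion median was 0.13 and the endothelial one -0.02. The fit without cKO library A treats the lone cKO library B as varying like the wild-type pair, so only its medians are given for these lists. The 2 markers with the highest mean in a list can differ from its median: log2 fold changes were 0.45 for Top2a and -0.51 for Mki67 in the G2/M list, and 0.37 for Slc1a3 and -0.68 for Pdgfra in the astrocyte list. They were -0.40 for Otx2 and -0.60 for Crx among rod precursor markers, -2.59 for Csf1r among microglial markers and 0.30 for Stmn2 and 0.33 for Gap43 among ganglion cell markers. For amacrine and horizontal cells they were 0.03 for Tfap2b and -0.19 for Gad2, and for endothelial and mural cells 0.11 for Kdr and 0.15 for Pdgfrb. Kdr, at normalized counts of 37658.6 to 48370.5, lay far above Pdgfrb, at 829 to 998. Slc1a3, at 17862 to 36834, likewise lay far above Pdgfra, at 481 to 1021. Which cells gave the Kdr and Slc1a3 reads was not tested.

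Genes most like each member were found by the smallest root mean square distance between centred log2 profiles over the 4 libraries, among 12323 other genes with a mean of at least 100. Uhrf1 was nearest to Rab15, Dcxr and Champ1, at distances of 0.006 to 0.011. Dnmt1 was nearest to Tmem33, Bves and Mecr, and Dnmt3a to Slc11a2, Lzts2 and Mark2. Dnmt3b was nearest to Heatr6, Tnik and Trim26, and Tet1 to Mrpl37, Tfcp2 and Shc1. Tet3 was nearest to Ago4, Pou6f1 and Fbxo27. Tet2 was nearest to Zscan18, 2700097O09Rik and Akap5, at 0.014 to 0.033. Each of these was lowest in cKO library A, which follows from their choice by profile. Akap5 had 151 and 522 in cKO libraries, against 597 and 591 in wild-type libraries. A profile of 4 values is matched by many genes by its shape alone.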

How the data were processed

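Enriched mRNA of sorted retinal cells was sequenced with a stranded kit, per the series' design text. FastQC, TopHat, HTSeq and DESeq were used with mouse build mm10, per the submitters' processing notes; versions, annotation and strand setting are not stated in the sources used. The deposited normalized counts are a signal per gene: reads scaled by a single factor for each library, as header and values show. All of them (100%) were whole multiples of the value of 1 read within 0.01 reads, so reads were recovered. Floors of 3 reads cover counting error only. The p-values quoted as the authors' are those of the deposited table. Both cKO columns are headed replicate 2 and were assigned to their group. Libraries of a group differed beyond sampling noise (chi-square per degree of freedom 113.3 in cKO and 67.0 in wild type). Nothing ties the libraries to separate animals, so p-values measure the spread between these libraries.

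The test was limma 3.58.1 on log2(normalized count + 1) (moderated, two-sided, mean-dependent prior, R 4.3.3), with 2 residual degrees of freedom before moderation. edgeR 4.0.16 (quasi-likelihood) and DESeq2 1.42.0 were run on the recovered reads as alternatives, and each test was also run on simulated reads. Those reads had the same spread in every library, so they do not show how the tests behave with a library like cKO library A. Other alternatives were pseudocounts of 0.5 and 5, other filters, a median rescaling, no mean-dependent prior, a replicate block and each library left out. Lengths and coordinates came from GENCODE M21 (GRCm38), where 96.1% of identifiers were found. Antisense genes shared 0.8% of the merged exon bases of Dnmt3a and 0.3% of those of Tet2. Members and lists were chosen with earlier results of these data known. Named were all members, the 3 genes nearest to each member, and in each list the 2 genes with the highest mean, since none passed. Dnmt3l and Dppa3 were added for having no reads in any library. Aif1 was added as a microglial marker without reads in cKO library A, where some markers of other lists also had none. The values of 2 genes that this rule selects are not reported here.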

Additional observations from a re-analysis of the deposited data

How the results depend on the processing

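Every member kept its direction and stayed short of the threshold under the other pseudocounts, filters, rescaling, prior, edgeR and DESeq2, and the median of the members ran from -0.22 to -0.18 there. Their adjusted p ran from 0.763 to 0.954 in these settings. The number of genes called was 0 in all of these but DESeq2, which called 1. When each library was left out in turn the number of genes called ran from 0 to 5768, with 54 when cKO library A and 5768 when cKO library B was left out, the members called from 0 to 3 (Dnmt3b, Tet2 and Tet3, all without cKO library B) and the median of the members from -0.31 to -0.13. Over these omissions Dnmt1 ran from -0.02 (without wild-type library B) to 0.18 and Dnmt3a from -0.31 to 0.09 (without wild-type library A); the cause was not tested. With 1 library set against 2, differences between A and B enter these fits.

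With the replicate block on the shared tags limma called 0 genes and 0 members, at a median of -0.22, with 1375 genes at an unadjusted p under 0.05, Tet2 among them (limma, adjusted p = 0.426). What the tags stand for is not stated in the sources used; across genes, deviations from the group mean correlated at 0.258 between libraries of 1 tag. Dnmt3b and Tet2 had the fewest reads of the members in cKO library A, 226 and 370.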
